A study of Homo sapiens with 15 samples.

Results

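The genes of cholesterol and fatty acid synthesis were followed as a set of 32 named genes, taken by symbol from textbook pathways with earlier results of these data known, among the 58735 genes of the count table. They comprise 18 enzymes of sterol synthesis, 8 enzymes of fatty acid synthesis and desaturation, and 6 genes that control the pathway or carry cholesterol. RNA was sequenced from UKE1 cells, a haematopoietic line derived from a myeloproliferative neoplasm that carries an activating JAK2 mutation, in 15 libraries that form 5 groups of 3. One group was left untreated and another received TNF-α alone. The other three groups received TNF-α and afterwards MCL, ruxolitinib, or both of these drugs. MCL stands, as far as the series title tells, for micheliolide, a plant-derived sesquiterpene lactone, and ruxolitinib inhibits JAK1 and JAK2. The labels place RNA collection at 3 h after treatment in every group, and all groups share the label WT, with no other genotype given. No source used here gives doses, a vehicle or how long TNF-α acted before the drugs. The labels number the libraries of a group but do not say that they came from separate cultures, so the p-values rest on a spread between libraries that may be only technical.

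Cholesterol is made from acetyl-CoA through mevalonate, isoprenoid diphosphates, squalene and lanosterol, and lanosterol is then trimmed and desaturated to cholesterol. Fatty acid synthesis starts from the same cytosolic acetyl-CoA, which ACLY makes from citrate. Both pathways are controlled by the SREBP transcription factors, encoded by SREBF1 and SREBF2. When membrane cholesterol is plentiful, the INSIG proteins hold SCAP and its SREBP cargo in the endoplasmic reticulum. When it falls, the SREBPs reach the Golgi, are cleaved and enter the nucleus. INSIG1 is itself a target of this route.

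A count of at least 1 was present for all 32 members, and 31 of them passed the filter on low counts. The exception was CYP51A1, lanosterol demethylase, with 15 counts over all 15 libraries. Of its 3584 exon bases, 2844 (79.4%) also lie in exons of 2 overlapping annotated genes, AC000120.2 and AC000120.3, each with 0 counts. The handling of reads that fall in more than 1 gene is not stated, and CYP51A1 was not tested. Library totals ranged from 15476399 to 18035604 counts, and the members took 0.609% to 0.674% of them. The pan-haematopoietic marker list of 10 genes summed to 3233 to 3296 CPM (counts scaled to library size) in untreated and TNF-α cells, 2630 to 2670 after MCL, 3090 to 3112 after ruxolitinib and 1894 to 1963 after both. Behind the similar sums of untreated and TNF-α cells, 3 of the 10 markers were higher with TNF-α and 5 lower (log2 changes from -0.93 to 0.72). Against TNF-α, MCL gave 0 higher and 8 lower, and ruxolitinib 1 higher and 3 lower. With both drugs 8 of 10 were lower than with TNF-α, including GATA2 (-2.10 on the log2 scale) and SPI1 (-1.50). The shares of all tested genes are given with each comparison below. MPO was near or below 1 CPM on average in every group. The erythroid and megakaryocytic list of 8 genes summed to 997 to 1016 CPM in untreated cells, 904 to 952 with TNF-α, 820 to 840 with MCL, 809 to 817 with ruxolitinib and 628 to 676 with the combination. The endothelial list of 4 genes summed to 461 to 472, 390.1 to 398, 338 to 343, 353 to 373 and 347 to 358 CPM in that order. The epithelial list stood at 39.6 to 56.2 CPM over all libraries, the T cell list at 11.6 to 21.3 and the B cell list at 19.9 to 27.6, while the fibroblast list reached at most 1.80 CPM. Mitochondrial transcripts made up 4.21% to 4.78% of counts in the libraries with MCL and 4.94% to 5.53% in the others. The part of these shifts in the results below was not tested, and in bulk RNA fewer cells of a type and less RNA per cell cannot be told apart. As a check of the treatments, TNF-α raised TNFAIP3, an NF-kB feedback gene, by 4.30 ± 0.06 (log2 change ± SE, the SE derived from the test statistic). MCL raised HMOX1, haem oxygenase, by 7.03 ± 0.15, and ruxolitinib lowered the interferon target IFIT1 by 2.94 ± 0.07. HMOX1 had only 23 counts over the TNF-α libraries, so its SE is a rough guide and may be too small.

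Promoter sequences are shown for 7 members, SREBF2 for the factor it encodes and the others for the transcript patterns described below. The sequences come from RefSeq (GRCh38.p14), which had entries for 28 of the 32 members. Each is read 5′ to 3′ on the gene's strand and ends at or before the annotated start, since bases in exons of protein-coding genes were left out. Capitals mark matches, on either strand, to CCAAT, the box bound by NF-Y, and to TCACNCCAC, a sterol regulatory element. MSMO1 (chr4:165327419-165327622, plus strand), HSD17B7 (chr1:162790452-162790701, plus) and INSIG1 (chr7:155297628-155297775, plus) stand for the genes that rose with both drugs.
MSMO1: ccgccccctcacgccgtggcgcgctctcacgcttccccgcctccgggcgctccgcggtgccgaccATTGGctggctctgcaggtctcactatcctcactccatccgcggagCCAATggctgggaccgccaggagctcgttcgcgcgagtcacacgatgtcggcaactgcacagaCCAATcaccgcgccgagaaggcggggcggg
HSD17B7: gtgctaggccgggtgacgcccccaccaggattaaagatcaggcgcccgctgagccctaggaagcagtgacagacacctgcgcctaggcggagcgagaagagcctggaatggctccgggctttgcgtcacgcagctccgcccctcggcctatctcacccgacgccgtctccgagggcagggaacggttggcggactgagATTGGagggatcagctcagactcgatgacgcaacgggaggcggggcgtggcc
INSIG1: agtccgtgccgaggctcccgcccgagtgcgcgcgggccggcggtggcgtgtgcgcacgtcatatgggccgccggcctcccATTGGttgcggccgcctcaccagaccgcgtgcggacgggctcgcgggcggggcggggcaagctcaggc

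HMGCS1 (chr5:43313513-43313662, minus strand) and LSS (chr21:46228825-46229024, minus) stand for those that rose with TNF-α and were lower again with both drugs. SREBF2 (chr22:41832855-41833078, plus) encodes the sterol-directed transcription factor, and SCD (chr10:100346983-100347123, plus) is the fatty acid enzyme with the smallest p in the TNF-α comparison.
HMGCS1: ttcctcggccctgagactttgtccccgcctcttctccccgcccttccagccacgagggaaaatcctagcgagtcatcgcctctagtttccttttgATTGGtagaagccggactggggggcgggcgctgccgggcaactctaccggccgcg
LSS: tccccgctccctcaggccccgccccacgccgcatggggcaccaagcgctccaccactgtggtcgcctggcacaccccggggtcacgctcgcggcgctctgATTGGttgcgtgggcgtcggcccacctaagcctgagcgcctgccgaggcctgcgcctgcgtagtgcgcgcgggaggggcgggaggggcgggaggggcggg
SREBF2: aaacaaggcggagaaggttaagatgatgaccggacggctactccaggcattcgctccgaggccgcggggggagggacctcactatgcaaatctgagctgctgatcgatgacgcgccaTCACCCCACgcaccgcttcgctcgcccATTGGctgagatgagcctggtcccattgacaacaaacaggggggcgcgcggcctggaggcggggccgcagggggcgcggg
SCD: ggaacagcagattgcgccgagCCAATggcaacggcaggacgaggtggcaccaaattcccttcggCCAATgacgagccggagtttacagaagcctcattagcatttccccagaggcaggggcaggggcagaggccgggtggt

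In the 250 bases before the start, CCAAT or its complement was found in 24 of the 39 RefSeq promoters of members (61.5%) against 11240 of 35116 promoters of all genes (32%). These 24 promoters belong to 20 of the 28 genes with an entry. MSMO1 had 4 matches in its window, of which 3 lie in the stretch shown, and HMGCS1 had 2, of which 1 is shown. The HMGCS1 stretch comes from 1 of its 2 promoter entries. The E-box CACGTG was found in 4 member promoters (10.3%, of SC5D, INSIG1 and SCAP) against 6.34% of all promoters. TCACNCCAC was found in 1 member promoter (2.56%), that of SREBF2 at chr22:41832972-41832980, against 0.883% of all. In the SREBF2 stretch shown, the TCACNCCAC match and the CCAAT match (on the opposite strand) do not overlap, and a match describes letters only. The genes that rose and those that fell with both drugs both had CCAAT in the promoters shown.

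Baseline levels, given as RPKM (reads scaled to library size and gene length) so that genes can be compared, spanned a wide range. In untreated cells SCD, the desaturase that makes oleic acid, stood at 115 ± 2.89 RPKM and FASN, fatty acid synthase, at 113 ± 2.46 (SD, n = 3 here and below). The highest sterol enzymes were SQLE, squalene epoxidase, at 95.7 ± 2.05 and FDFT1, squalene synthase, at 94.4 ± 3.72 RPKM. SREBF2 at 67.0 ± 1.30 RPKM was above SREBF1 at 23.2 ± 0.839, and INSIG1 at 39.9 ± 0.821 was above INSIG2 at 7.45 ± 0.278. The lowest tested members were the acetyl-CoA synthetase ACSS2 (1.60 RPKM) and the sterol reductase HSD17B7 (1.17 RPKM). Summed over the 17 tested genes, the sterol enzymes gave 2074 ± 17.4 CPM in untreated cells, and the 8 fatty acid enzymes gave 3240 ± 34.7 CPM.

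**Figure D1:**
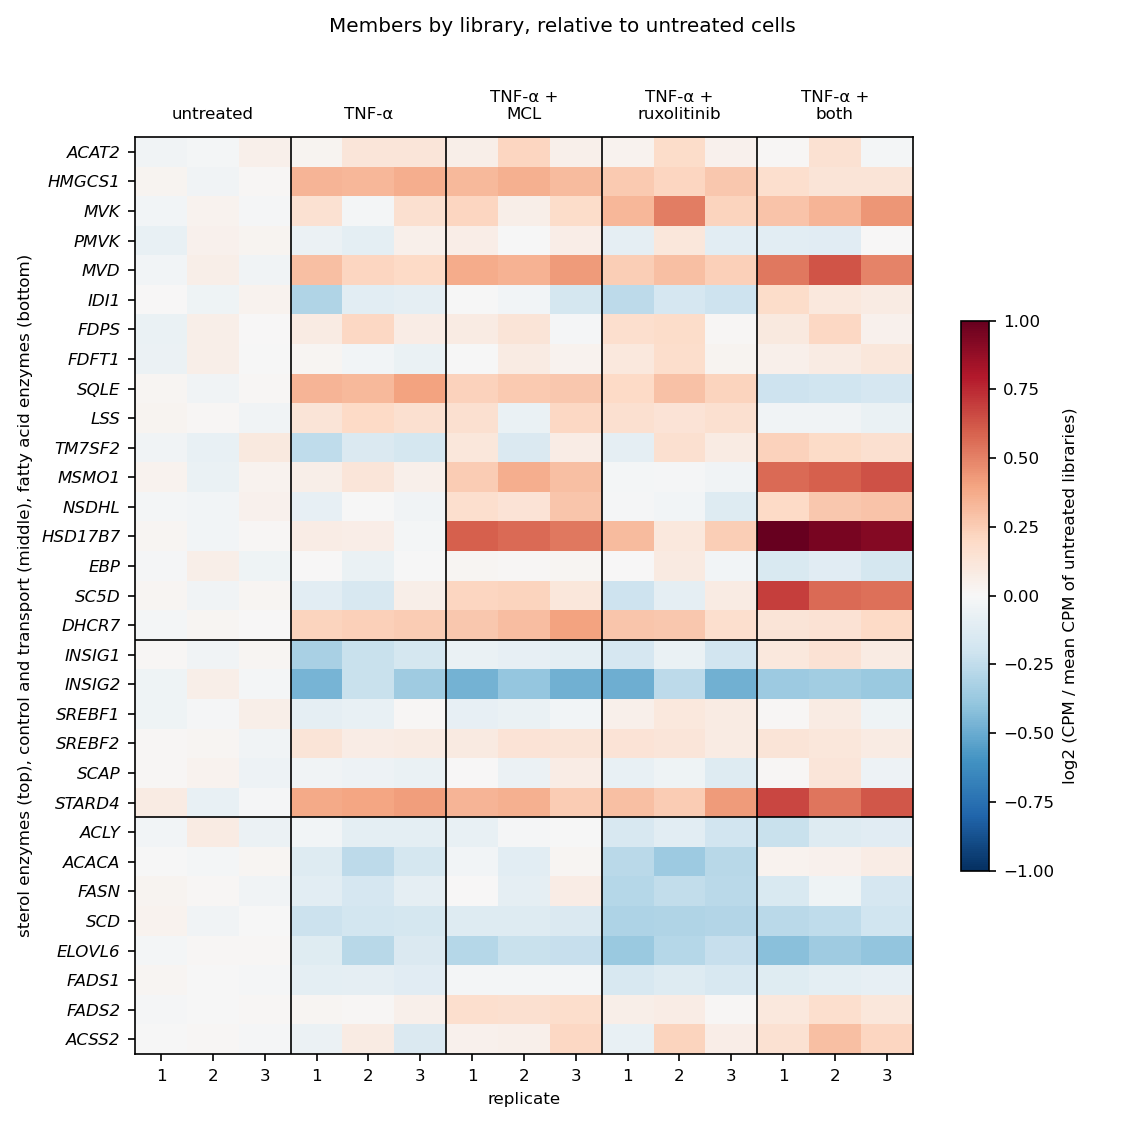
Each row is a tested member and each column a library; colour gives log2 of CPM over the mean of the 3 untreated libraries, from blue (lower) to red (higher). HSD17B7 is deepest red in the 3 libraries with both drugs, where MSMO1, SC5D, STARD4 and MVD are also red, SQLE is red with TNF-α and blue with both drugs, and SCD and ELOVL6 are blue in every library with TNF-α.

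TNF-α raised several sterol enzymes and lowered most fatty acid enzymes. SQLE, which epoxidises squalene at a rate-limiting step, and HMGCS1, HMG-CoA synthase, rose by 28% and 27.2%, while SCD fell by 12.5%. The control genes INSIG1 and INSIG2 fell, and the cholesterol carrier STARD4 rose. Of 31 tested members 7 rose, 8 fell and 16 did not pass. Over all 16146 tested genes 14.1% rose and 12.5% fell, 26.6% in all, and the threshold is an adjusted p under 0.05 throughout. Of 17 sterol enzymes 5 rose and 1 fell (median log2 change 0.08), and of 8 fatty acid enzymes 0 rose and 5 fell (median -0.11), beside a median of 0.0046 over all tested genes. The difference between these 2 classes was not tested here or in the comparisons below, where members are described by counts and medians.

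Among the enzymes of the early sterol pathway, HMGCS1 (chr5:43289395-43313512 in hg38) stood at 193, 185 and 191 CPM in the untreated libraries and 240.1, 239.5 and 245 CPM with TNF-α. Its log2 change was 0.35 ± 0.03 (SE, adjusted p = 8.59e-13), and the groups did not overlap. Such separation of TNF-α from untreated libraries was seen upward in 3228 and downward in 3038 of all 16146 tested genes. MVD, the decarboxylase that yields isopentenyl diphosphate, went from 85.4, 91.1 and 85.4 CPM to 107, 101 and 100.2 CPM (0.24 ± 0.04, adjusted p = 1.57e-05). IDI1, the isomerase of the next step, moved the other way and fell by 0.16 ± 0.05 (adjusted p = 0.00621). FDPS, farnesyl diphosphate synthase, was at 0.12 ± 0.05 with an adjusted p of 0.0518, and ACAT2, MVK and PMVK had adjusted p values of 0.304, 0.383 and 0.745.

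At the squalene step, SQLE (chr8:124998497-125022283) stood at 418, 402 and 416 CPM untreated and 520.3, 516 and 544 CPM with TNF-α. This was the smallest adjusted p among the members (0.36 ± 0.03, adjusted p = 2.92e-14), and every TNF-α library lay above every untreated one. LSS, which acts after SQLE and closes the ring of lanosterol, rose by 0.16 ± 0.05 (adjusted p = 0.00596). FDFT1, which acts before SQLE, was at -0.02 ± 0.03 (adjusted p = 0.68). Of the 7 tested enzymes that turn lanosterol into cholesterol only DHCR7, the last of them, passed. It went from 173, 177 and 176 CPM to 205, 206 and 209 CPM (0.24 ± 0.04, adjusted p = 6.45e-07).

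In the fatty acid branch SCD went from 633, 602 and 614 CPM to 530.1, 543 and 544 CPM (-0.19 ± 0.03, adjusted p = 7.17e-07). ACACA, the acetyl-CoA carboxylase that commits carbon to fatty acids, went from 167, 165 and 169.5 CPM to 153, 139 and 148 CPM (-0.19 ± 0.04, adjusted p = 0.000105). In both genes the lowest untreated library was above the highest TNF-α library. FASN fell by 0.12 ± 0.03 (adjusted p = 0.00478), the desaturase FADS1 by 0.10 ± 0.03 (0.0194) and the elongase ELOVL6 by 0.18 ± 0.07 (0.047). ACLY was at -0.07 ± 0.04 (adjusted p = 0.134), and FADS2 and ACSS2 were at 0.03 and -0.04 (adjusted p = 0.58 and 0.879).

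The INSIG genes encode the brake of the pathway. INSIG1 went from 147, 142 and 148 CPM to 116, 125 and 129 CPM (-0.24 ± 0.04, adjusted p = 2.80e-06), and INSIG2 from 28.6, 30.7 and 28.9 CPM to 21.4, 25.2 and 23.0 CPM (-0.34 ± 0.08, adjusted p = 0.000352). Neither gene had overlapping groups. SREBF2 stood at 510.5, 514 and 495 CPM untreated and 553, 533 and 537 CPM with TNF-α, a rise of 0.09 ± 0.03 (adjusted p = 0.017). SREBF1 stood at 180.3, 185 and 193 CPM and 175, 177 and 188 CPM, with overlapping groups (-0.05 ± 0.04, adjusted p = 0.406), and SCAP was at -0.05 ± 0.04 (adjusted p = 0.482). STARD4, which moves cholesterol between membranes, rose most on the log2 scale, from 54.6, 48.9 and 51.0 CPM to 67.1, 67.7 and 68.8 CPM (0.40 ± 0.05, adjusted p = 1.22e-08).

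Genes around the pathway were taken from 3 further lists. Of 10 genes of SREBP processing and sterol handling, 0 rose and 4 fell, among them ERLIN2, which anchors INSIG-linked degradation (-0.36 ± 0.05, adjusted p = 3.84e-09), and PAQR3 (-0.21 ± 0.05, adjusted p = 0.000447). Of 15 genes of isoprenoid and sterol side branches 0 rose and 3 fell, with the sterol reductase LBR at -0.29 ± 0.06 (adjusted p = 2.71e-05). Of 27 tested genes of fatty acid supply, elongation and lipid assembly, 9 rose and 2 fell. ME1, malic enzyme, which supplies NADPH, went from 26.2 ± 1.91 CPM to 43.3 ± 3.37 CPM (0.73 ± 0.06, adjusted p = 7.09e-15). ACSL1, a fatty acyl-CoA synthetase, rose by 0.70 ± 0.05 (adjusted p = 1.23e-20). The 2 lower genes of the last list became 4 when scaled by library totals, and 1 side-branch gene rose without untreated replicate 2.

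Of the 15 member calls in this comparison 5 were lost in at least 1 alternative. IDI1 did not pass without TNF-α replicate 1 (adjusted p = 0.129), FADS1 without TNF-α replicate 3 (0.0609), and LSS without untreated replicate 3 (0.0546) or TNF-α replicate 2 (0.0535). ELOVL6 was lost without any 1 of the untreated replicates or TNF-α replicates 2 and 3 (adjusted p = 0.0524 to 0.225), and SREBF2 without untreated replicates 1 or 3 or TNF-α replicate 1 (0.0633 to 0.144), with library totals (0.125), DESeq2 size factors (0.0523) and no filter (0.233).

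**Figure D2:**
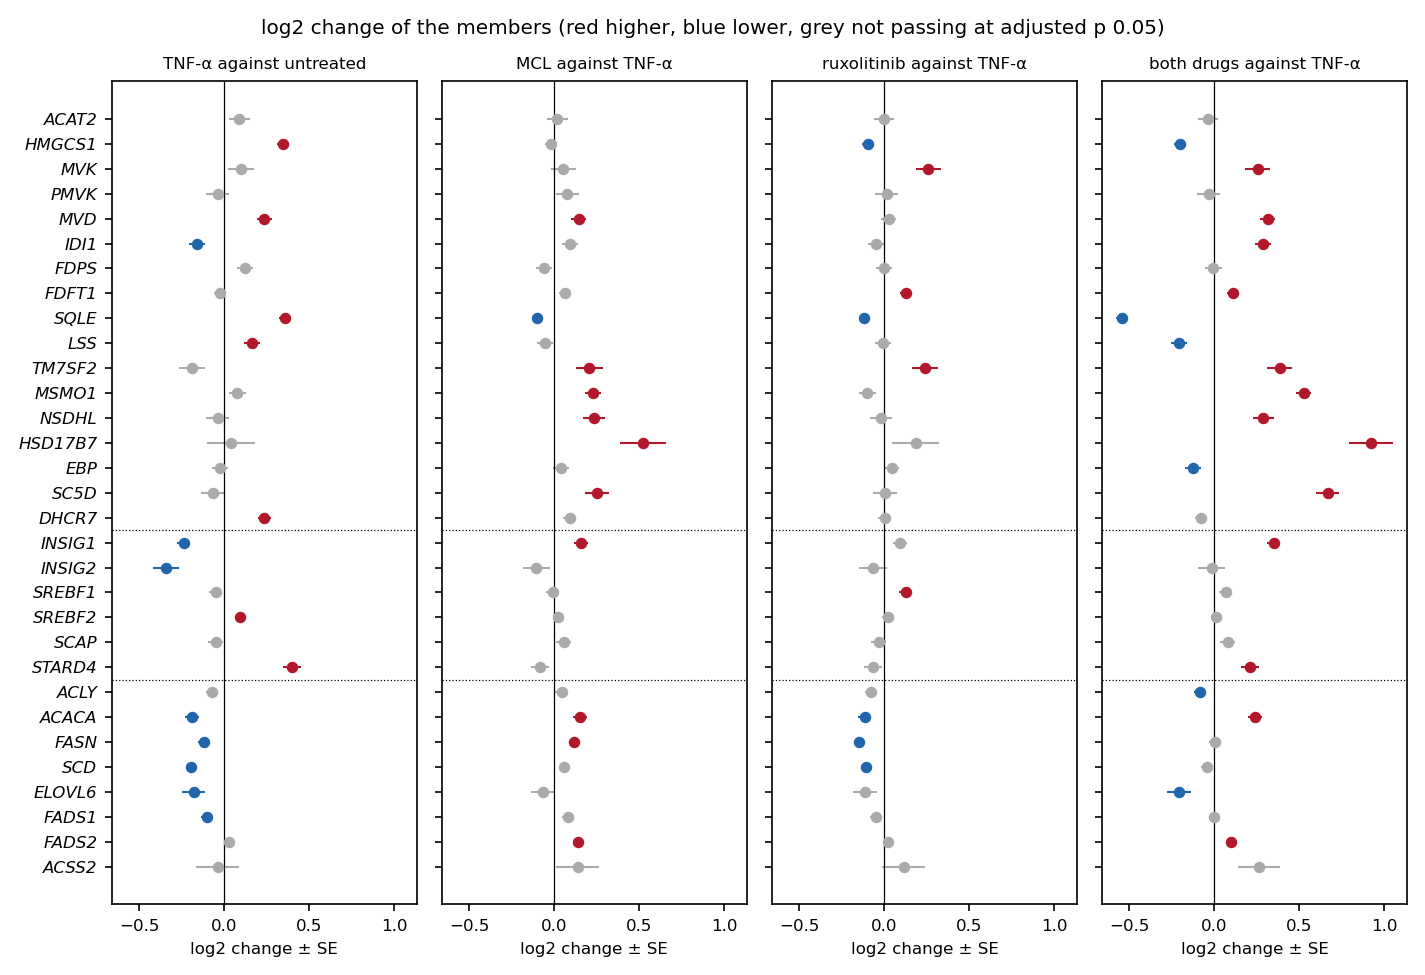
Points give the log2 change of each tested member with its standard error in 4 comparisons (3 libraries a group); red passed upward, blue passed downward and grey did not pass. Dotted lines separate sterol enzymes (top), control and transport genes (middle) and fatty acid enzymes (bottom). The enzymes from MSMO1 to SC5D are near 0 with TNF-α and lie to the right with both drugs, except EBP.

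MCL given after TNF-α raised enzymes of late sterol synthesis and some fatty acid enzymes. MSMO1, the sterol methyl oxidase, rose by 17.1% and HSD17B7 by 43.6%, and INSIG1 rose by 11.4%. Of 31 tested members 10 rose, 1 fell and 20 did not pass, where 10.9% of all tested genes rose and 15.1% fell, 26% in all. Of the 17 sterol enzymes 6 rose and 1 fell (median log2 change 0.08), of the 8 fatty acid enzymes 3 rose and 0 fell (median 0.10), and the median over all tested genes was -0.02. All 7 tested genes of the steps from lanosterol to cholesterol had a positive change, and 5 of them passed. Of all 16146 tested genes 7487 had a positive change. In the earlier steps it was 1 of 2 for ACAT2 and HMGCS1, 4 of 5 from MVK to FDPS and 1 of 3 from FDFT1 to LSS.

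MSMO1 (chr4:165327623-165343160) stood at 70.4, 73.7 and 69.8 CPM with TNF-α and 80.6, 86.7 and 83.3 CPM with MCL (0.23 ± 0.05, adjusted p = 0.000136). NSDHL, a dehydrogenase of the same demethylation step, went from 32.5, 34.2 and 33.5 CPM to 38.6, 37.6 and 41.5 CPM (0.23 ± 0.06, adjusted p = 0.0041). The reductase HSD17B7, which acts in that step too, went from 5.92, 5.89 and 5.53 CPM to 8.49, 8.29 and 8.10 CPM (0.52 ± 0.14, adjusted p = 0.00212). HSD17B7 has a near-identical pseudogene, HSD17B7P2, that was counted separately and stood at -0.25 ± 0.17 (adjusted p = 0.318), so the division of reads between the copies is uncertain. SC5D, the sterol desaturase, went from 30.8, 29.6 and 34.4 CPM to 38.4, 38.6 and 35.7 CPM (0.25 ± 0.07, adjusted p = 0.00463). In each of these 4 genes the lowest MCL library was above the highest TNF-α library. Such separation was seen upward in 2736 and downward in 3566 of all 16146 tested genes. TM7SF2, a sterol reductase, rose by 0.21 ± 0.08 (0.0403), and EBP and DHCR7 were at 0.04 and 0.09 (adjusted p = 0.576 and 0.0664).

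Before lanosterol 2 of 10 tested enzymes passed. SQLE was the member that fell, from 520.3, 516 and 544 CPM to 483, 495 and 496 CPM (-0.10 ± 0.03, adjusted p = 0.0155), and MVD rose by 0.14 ± 0.04 (0.00932). HMGCS1 stood at 237, 243 and 236 CPM with overlapping groups (-0.02 ± 0.03, adjusted p = 0.769). In the fatty acid branch FADS2 rose from 685, 682 and 702 CPM to 762, 755 and 763 CPM (0.14 ± 0.03, adjusted p = 0.00021). ACACA rose from 153, 139 and 148 CPM to 164, 156 and 169 CPM (0.15 ± 0.04, adjusted p = 0.00239) and FASN from 986, 944 and 993 CPM to 1064, 994 and 1115 CPM (0.12 ± 0.03, adjusted p = 0.00635). Each of the 3 had groups that did not overlap, FASN by a narrow margin.

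INSIG1 rose from 116, 125 and 129 CPM to 139, 137 and 136 CPM (0.16 ± 0.04, adjusted p = 0.00266). INSIG2 was at 21.2, 22.5 and 21.1 CPM (-0.10 ± 0.08, adjusted p = 0.379), SREBF1 at 176, 178 and 183 CPM (-0.01 ± 0.04, 0.888) and SREBF2 at 539.7, 557 and 554 CPM (0.02 ± 0.03, 0.621), all overlapping the TNF-α libraries. Outside the members, 2 of 10 genes of sterol handling rose and 1 fell. NPC1, which exports cholesterol from lysosomes, went from 28.3 ± 1.77 CPM to 43.7 ± 1.98 CPM (0.62 ± 0.07, adjusted p = 6.50e-12). Of 15 side-branch genes 3 rose and 0 fell, among them the sterol reductase LBR (0.30 ± 0.06) and the scaffold gene ERG28 (0.31 ± 0.05). Of 27 lipid genes 7 rose and 4 fell, led by ME1 at 1.16 ± 0.06 (adjusted p = 2.18e-26). Without TNF-α replicate 1 there was 1 higher gene of sterol handling in place of 2. The 1 lower gene of sterol handling was lost with library totals, without a filter and without MCL replicate 1, and without MCL replicate 2 there was 1 lower side-branch gene.

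INSIG1 did not pass without TNF-α replicate 1 (adjusted p = 0.056), MVD without TNF-α replicate 3 (0.0509), FASN without TNF-α replicate 2 (0.0532) or MCL replicate 3 (0.0808), and TM7SF2 without replicate 1 or 3 of either group (0.0676 to 0.196). The fall of SQLE was lost with library totals (0.0988), without a filter (0.167), and without TNF-α replicate 3 (0.168) or MCL replicate 1 (0.106), so that 0 members fell in those fits.

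Ruxolitinib given after TNF-α gave 9 member calls, the fewest of the 3 treatments compared with TNF-α alone. Its largest passing changes were rises of MVK by 19.6% and TM7SF2 by 18.1% and falls of FASN by 9.64% and SQLE by 7.76%. Of 31 tested members 4 rose, 5 fell and 22 did not pass, against 5.15% of all tested genes that rose and 10.6% that fell, 15.7% in all. Of the 17 sterol enzymes 3 rose and 2 fell (median log2 change 0.0023). Of the 8 fatty acid enzymes 0 rose and 3 fell (median -0.09), beside -0.01 over all tested genes.

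FASN went from 986, 944 and 993 CPM with TNF-α to 871, 893 and 877 CPM (-0.15 ± 0.03, adjusted p = 0.00116), with no overlap, and was the only member whose call held in every alternative. SCD went from 530.1, 543 and 544 CPM to 497, 501 and 502 CPM (-0.11 ± 0.03, adjusted p = 0.00979) and ACACA from 153, 139 and 148 CPM to 139, 129.8 and 138 CPM (-0.12 ± 0.04, 0.0372). Both were lower in every ruxolitinib library than in any TNF-α library, ACACA by a narrow margin. Among sterol enzymes SQLE went to 473, 503 and 482 CPM (-0.12 ± 0.03, adjusted p = 0.0072) and HMGCS1 to 227, 220.3 and 229 CPM (-0.10 ± 0.03, 0.0436). FDFT1 rose from 497, 483 and 468 CPM to 527, 554 and 501 CPM (0.13 ± 0.03, adjusted p = 0.00604), MVK from 28.9, 25.6 and 29.0 CPM to 32.7, 36.9 and 30.2 CPM (0.26 ± 0.07, 0.00971) and TM7SF2 from 23.2, 25.0 and 24.5 CPM to 26.0, 30.8 and 29.2 CPM (0.24 ± 0.08, 0.0233). These 3 genes had higher values in every ruxolitinib library than in any TNF-α library. Among all 16146 tested genes 1975 were higher and 2827 lower without overlap.

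SREBF1 rose from 175, 177 and 188 CPM to 192, 199.9 and 197 CPM (0.13 ± 0.04, adjusted p = 0.0152). It overlaps RAI1 on the opposite strand, and RAI1 was at -0.08 ± 0.06 (adjusted p = 0.406). SREBF2 was at 558, 550.0 and 537 CPM (0.02 ± 0.03, adjusted p = 0.769), INSIG1 at 129, 139 and 127 CPM (0.10 ± 0.04, 0.115) and INSIG2 at 20.9, 24.5 and 21.1 CPM (-0.07 ± 0.08, 0.675), each overlapping the TNF-α libraries. INSIG1 passed with library totals (adjusted p = 0.0359), without TNF-α replicate 3 (0.0449) and without ruxolitinib replicate 3 (0.0487). Of the genes around the pathway, the acyl-CoA synthetase ACSL4 fell by 0.30 ± 0.04 (adjusted p = 6.37e-09) and NUS1, of dolichol synthesis, by 0.23 ± 0.05 (0.00043). Of the 10 genes of sterol handling 2 rose and 1 fell. Leaving out any 1 library except ruxolitinib replicate 3 gave 0 to 1 higher and 0 lower, and the lower gene was also lost with DESeq2, DESeq2 size factors, library totals, no filter and only the groups compared.

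Leaving out single libraries ended 8 of the 9 member calls. FDFT1 did not pass without TNF-α replicate 3 (adjusted p = 0.0558). SQLE was lost without TNF-α replicate 3 (0.121) or ruxolitinib replicate 1 (0.0942), MVK without replicate 2 of either group (0.0996 and 0.1) and SREBF1 without TNF-α replicate 1 (0.0854) or 2 (0.0639). TM7SF2 was lost without TNF-α replicate 1 (0.102) or ruxolitinib replicate 2 or 3 (0.107 and 0.058), and SCD without replicate 2 or 3 of TNF-α or replicate 1 or 2 of ruxolitinib (0.0601 to 0.0715). ACACA was lost without any 1 library except TNF-α replicate 2 (0.0518 to 0.364) and HMGCS1 without any 1 library (0.0615 to 0.335), and DESeq2 called neither (0.0905 and 0.0671). The 5 lower members became 3 with DESeq2, DESeq2 size factors, library totals or only the groups compared, 2 without a filter, and 1 to 3 when a library was left out, while the 4 higher members became 2 without TNF-α replicates 1 or 2 or ruxolitinib replicate 2.

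Set directly against each other, the single drugs differed in most fatty acid enzymes, which were higher with MCL. Of the 8 fatty acid enzymes 6 were higher with MCL and 0 lower (median log2 difference, MCL minus ruxolitinib, 0.13), and of the 17 sterol enzymes 6 were higher and 1 lower (median 0.06). Over the members 12 were higher, 2 lower and 17 did not pass, against 14.3% higher and 13.1% lower of all tested genes, 27.5% in all. FASN stood at 1064, 994 and 1115 CPM with MCL and 871, 893 and 877 CPM with ruxolitinib (0.26 ± 0.03, adjusted p = 6.37e-09). ACACA differed by 0.27 ± 0.04 (adjusted p = 1.50e-07) and SCD, at 563, 564 and 559 against 497, 501 and 502 CPM, by 0.17 ± 0.03 (1.47e-05). The desaturases FADS1 and FADS2 differed by 0.13 ± 0.03 and 0.12 ± 0.03 (adjusted p = 0.00201 and 0.00175), and ACLY by 0.12 ± 0.04 (0.00636). In each of these 6 genes every MCL library was above every ruxolitinib library. This held for 3048 of all 16146 tested genes, and the reverse for 3012.

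Of the sterol genes MSMO1 stood at 80.6, 86.7 and 83.3 CPM with MCL and 66.8, 67.1 and 65.9 CPM with ruxolitinib (0.33 ± 0.05, adjusted p = 9.69e-08). NSDHL, at 38.6, 37.6 and 41.5 against 34.0, 33.6 and 31.4 CPM, differed by 0.25 ± 0.06 (0.00171), and SC5D by 0.25 ± 0.07 (0.00452). MVK and SREBF1 were lower with MCL, at -0.20 and -0.14 (adjusted p = 0.0312 and 0.00454), while INSIG1, INSIG2 and SREBF2 were at 0.06, -0.04 and 0.01 (adjusted p = 0.301, 0.786 and 0.932). Calls lost without 1 library were those of SC5D (ruxolitinib replicate 1, 0.0778), ACLY (ruxolitinib replicate 3, 0.0507), IDI1 (MCL replicates 1 or 2 or ruxolitinib replicate 1, 0.092 to 0.143), MVK (MCL replicate 2 or ruxolitinib replicates 1 or 2, 0.0545 to 0.301) and MVD (replicate 1 or 3 of either group, 0.0652 to 0.138, and with DESeq2, 0.0587). HSD17B7 passed at 0.0485 and was lost without any 1 of the 6 libraries (0.0554 to 0.169) and in 5 other settings, and the count of 2 lower members was 1 without a filter, with DESeq2 or without MCL replicate 2 or ruxolitinib replicates 1 or 2, and 3 without ruxolitinib replicate 3.

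Both drugs together moved sterol enzymes in both directions. SQLE fell by 31.5% from its TNF-α level, and HMGCS1 and LSS also fell, while MSMO1, SC5D and HSD17B7 rose by 43.8%, 58.9% and 89.5%. INSIG1 rose by 27.3% to above its untreated level. Of 31 tested members 13 rose, 6 fell and 12 did not pass. The whole transcriptome moved widely in this comparison: 25.5% of tested genes rose and 29.3% fell, 54.8% in all, against 19 of 31 members. Of the 17 sterol enzymes 9 rose and 4 fell (median log2 change 0.11), of the 8 fatty acid enzymes 2 rose and 2 fell (median 0.0011), and all tested genes had a median of -0.03. The fatty acid median ranged from -0.0129 (without replicate 2 of both drugs) to 0.0186 (without replicate 1 of both drugs) when 1 library was left out, and was also below 0 without TNF-α replicate 2.

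The steps before lanosterol went in both directions. SQLE stood at 520.3, 516 and 544 CPM with TNF-α and 358, 358 and 367 CPM with both drugs (-0.55 ± 0.03, adjusted p = 1.40e-22), below the lowest untreated library. HMGCS1 stood at 213, 208 and 208 CPM (-0.20 ± 0.03, adjusted p = 7.87e-07), between the untreated and TNF-α libraries. LSS went from 103, 108 and 106 CPM to 92.0, 92.1 and 90.2 CPM (-0.21 ± 0.05, adjusted p = 0.000125). By contrast MVD rose from 107, 101 and 100.2 CPM to 126, 135 and 123 CPM (0.31 ± 0.04, adjusted p = 4.52e-09) and IDI1 from 116, 133 and 135 CPM to 163, 154 and 152 CPM (0.29 ± 0.05, 5.50e-07). Neither gene had overlapping groups, where 4579 of all 16146 tested genes were higher and 5199 lower without overlap. MVK rose by 0.25 ± 0.07 (0.00261) and FDFT1 by 0.11 ± 0.03 (0.00657). MVK overlaps MMAB on the opposite strand, which was at 0.30 ± 0.07 (0.000229), and the strand setting of the counting is not stated. ACAT2, PMVK and FDPS were at -0.04, -0.03 and -0.01 (adjusted p = 0.618, 0.696 and 0.932).

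From lanosterol onward 5 of 7 tested enzymes rose. MSMO1 went from 70.4, 73.7 and 69.8 CPM to 100.1, 102 and 105 CPM (0.52 ± 0.05, adjusted p = 2.71e-15) and SC5D (chr11:121292453-121308694) from 30.8, 29.6 and 34.4 CPM to 53.3, 48.9 and 48.4 CPM (0.67 ± 0.07, 3.47e-13). HSD17B7 (chr1:162790702-162812817) had the largest change of all members and went from 5.92, 5.89 and 5.53 CPM to 11.5, 10.8 and 10.6 CPM (0.92 ± 0.13, 9.73e-09). For all 3 genes the libraries with both drugs were also above those of every other group. The pseudogene HSD17B7P2 rose as well, by 0.60 ± 0.16 (adjusted p = 0.00101). TM7SF2 rose by 0.38 ± 0.08 (1.62e-05) and NSDHL by 0.29 ± 0.06 (8.91e-05), while EBP, the sterol isomerase, fell by 0.12 ± 0.05 (0.016). DHCR7 was at -0.08 ± 0.04 (adjusted p = 0.0699).

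INSIG1 (chr7:155297776-155310235) went from 116, 125 and 129 CPM to 156, 161 and 154 CPM (0.35 ± 0.04, adjusted p = 3.98e-11), above all libraries of the other groups. STARD4 rose further from 67.1, 67.7 and 68.8 CPM to 81.8, 74.7 and 79.1 CPM (0.21 ± 0.05, 0.000424), while its antisense neighbour STARD4-AS1 fell by 0.75 ± 0.16 (4.48e-05). INSIG2 stood at 22.9, 23.1 and 22.8 CPM (-0.02 ± 0.08, adjusted p = 0.88), and every one of these libraries was below every untreated library. SREBF2 stood at 554, 547 and 537 CPM (0.01 ± 0.03, 0.773) and SREBF1 at 188, 197 and 180.2 CPM (0.07 ± 0.04, 0.132), both overlapping the TNF-α libraries. SREBF1 passed with DESeq2 size factors (0.04), library totals (0.00093), only the groups compared (0.0415) and without TNF-α replicate 3 (0.0462) or replicate 3 of both drugs (0.0316), and SREBF2 with library totals (0.00979). SCAP was at 0.08 ± 0.04 (adjusted p = 0.127).

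In the fatty acid branch ACACA (chr17:37084988-37406818) rose from 153, 139 and 148 CPM to 171, 172 and 176 CPM (0.24 ± 0.04, adjusted p = 4.56e-07), with no overlap. Its libraries with both drugs were also above those of every other group. FADS2 rose by 0.10 ± 0.03 (0.00374), ELOVL6 fell by 0.21 ± 0.07 (0.0103) and ACLY fell by 0.08 ± 0.04 (0.0472). FASN stood at 955, 1028 and 944 CPM and SCD at 513, 518 and 536 CPM (0.00 ± 0.03 and -0.05 ± 0.03, adjusted p = 0.969 and 0.213), and FADS1 and ACSS2 were at 0.00 and 0.26 (0.995 and 0.064). FADS1 and FADS2 overlap each other on opposite strands, and FADS2 also overlaps FEN1, which was at -0.39 ± 0.04 (5.62e-14).

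Of the 10 genes of sterol handling 4 rose and 2 fell with both drugs. NPC1 stood at 27.3, 27.3 and 30.4 CPM with TNF-α and 65.9, 66.3 and 63.7 CPM with both drugs (1.21 ± 0.06, adjusted p = 1.50e-25), a larger log2 change than that of any tested member. OSBP, an oxysterol-binding transfer protein, rose by 0.40 ± 0.04 (1.02e-11). Of 15 side-branch genes 3 rose and 5 fell, with ERG28 up by 0.43 ± 0.05 (4.05e-10) and DHDDS, of dolichol synthesis, down by 0.35 ± 0.07 (6.47e-06). Of 27 lipid genes 9 rose and 9 fell. ME1 rose by 1.16 ± 0.06 (2.46e-27), and AGPAT3, an acyltransferase of phospholipid synthesis, fell from 251 ± 3.65 CPM to 149 ± 4.79 CPM (-0.75 ± 0.04, 4.49e-26). The 5 lower side-branch genes became 3 with library totals, with DESeq2 and without TNF-α replicates 1 or 2 or replicate 3 of both drugs.

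The falls of EBP and ACLY were lost most often. EBP was lost in 8 alternatives, among them library totals (adjusted p = 0.371), DESeq2 (0.0685) and leaving out replicate 1 or 3 of either group (0.0537 to 0.0756). ACLY was lost in 10, among them library totals (0.888), DESeq2 (0.204) and leaving out any TNF-α library or replicate 1 or 2 of both drugs (0.0618 to 0.382). ELOVL6 was lost without TNF-α replicate 1 (0.0579) and with library totals (0.108), and FDFT1 without TNF-α replicate 3 (0.0551), so that 3 members fell both with library totals and without TNF-α replicate 1.

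**Figure D3:**
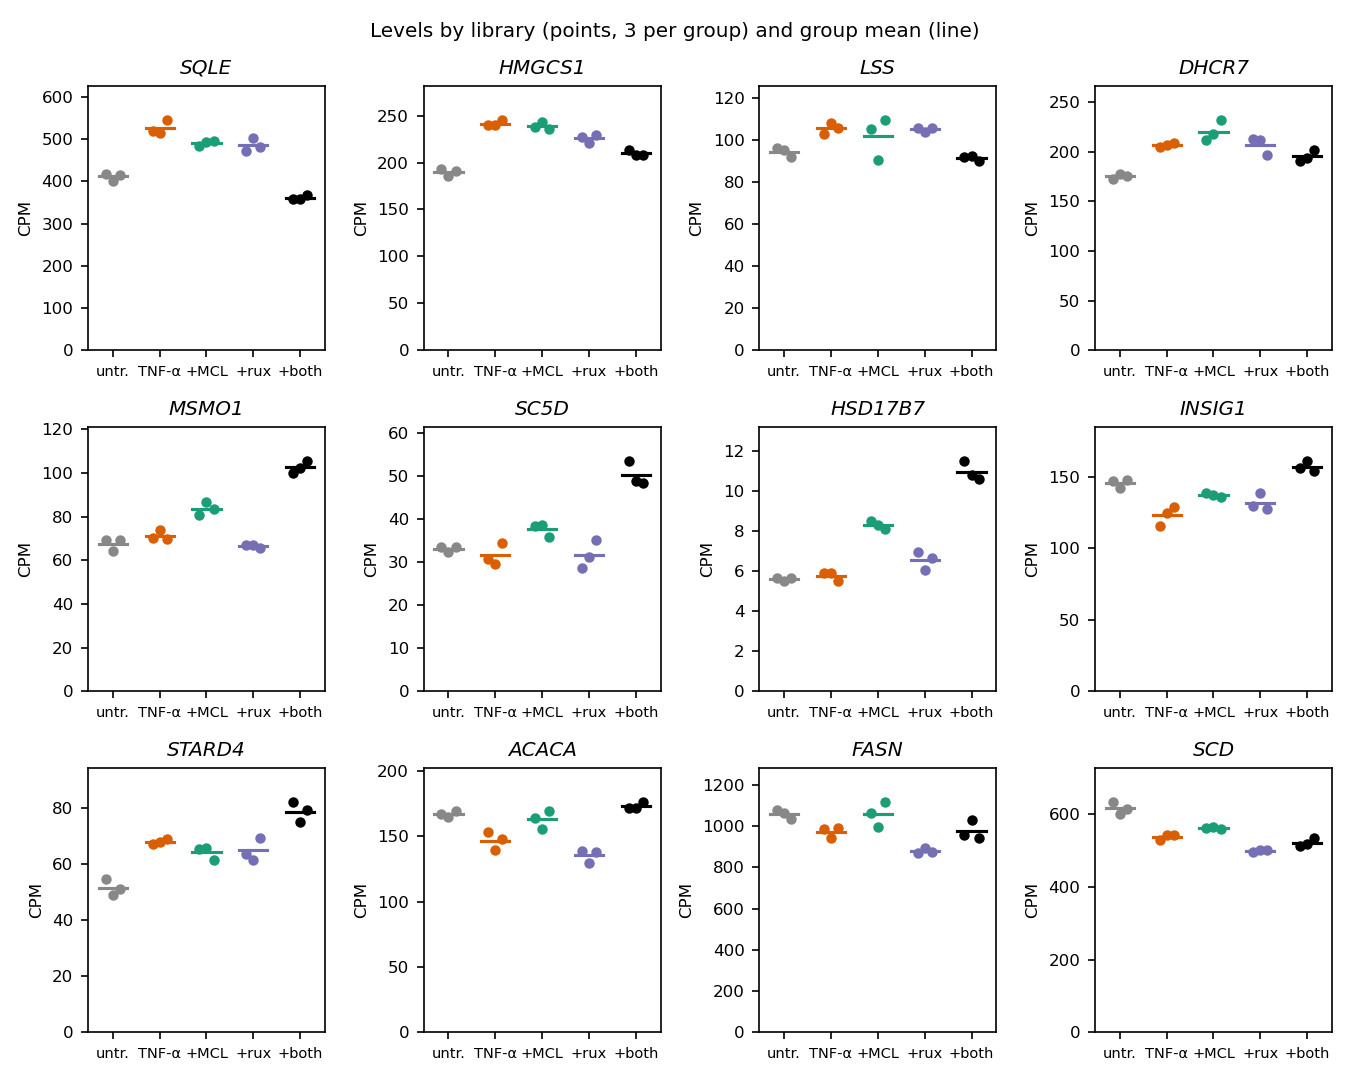
CPM of 12 members in each library (points, 3 a group) with the group mean (line), for untreated cells, TNF-α alone and TNF-α with MCL, ruxolitinib or both drugs; axes start at 0. The libraries with both drugs are the highest of all for MSMO1, SC5D, HSD17B7, INSIG1, STARD4 and the fatty acid enzyme ACACA, and the lowest of all for SQLE.

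The combination was also compared with each drug alone, in comparisons that share its libraries. Against ruxolitinib, MSMO1, SC5D and HSD17B7 were higher with both drugs and SQLE was lower. Of 31 tested members 12 were higher with both drugs, 4 lower and 15 did not pass, against 24.8% higher and 26.8% lower of all tested genes, 51.7% in all. Of the 17 sterol enzymes 6 were higher and 4 lower (median log2 change -0.0043), and of the 8 fatty acid enzymes 3 were higher and 0 lower (median 0.07). MSMO1 stood at 66.8, 67.1 and 65.9 CPM with ruxolitinib and 100.1, 102 and 105 CPM with both drugs (0.62 ± 0.05, adjusted p = 3.34e-18). SQLE was lower, at -0.43 on the log2 scale (8.26e-18), and SC5D, at 28.7, 31.1 and 35.0 CPM with ruxolitinib, was higher by 0.66 (4.38e-13). ACACA was higher by 0.35 (1.23e-11), IDI1 by 0.34 (1.97e-08), MVD by 0.29 (4.08e-08), INSIG1 by 0.25 (2.22e-07) and HSD17B7 by 0.74 (1.23e-06). None of these 8 genes had overlapping groups, where 4409 of all 16146 tested genes were higher and 4687 lower without overlap. INSIG2, SREBF1 and SREBF2 were at 0.05, -0.06 and -0.01 (adjusted p = 0.632, 0.196 and 0.864). SCAP, at 0.11 (0.0292), was lost without ruxolitinib replicates 1 or 3 or replicate 2 of both drugs (0.0571 to 0.271), FADS2 without ruxolitinib replicate 3 (0.16) or replicate 2 of both drugs (0.149), and HMGCS1 with library totals (0.191).

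Against MCL alone, 8 members were higher with both drugs, 9 lower and 14 did not pass, where 19.6% of all tested genes were higher and 22% lower, 41.6% in all. Of the 17 sterol enzymes 6 were higher and 5 lower (median log2 change 0.05), and of the 8 fatty acid enzymes 0 were higher and 4 lower (median -0.09). SQLE, at 483, 495 and 496 CPM with MCL, was lower, with a log2 change of -0.45 (3.68e-18), as were HMGCS1 at -0.19 (7.58e-06) and DHCR7, at 211, 217 and 231 against 191, 194 and 202 CPM, at -0.17 (0.000148). MSMO1 was higher by 0.30 (1.66e-07), SC5D by 0.42 (3.11e-07), STARD4, at 65.3, 65.7 and 61.4 CPM with MCL, by 0.29 (4.21e-06), INSIG1 by 0.19 (5.86e-05) and IDI1 by 0.20 (0.000405). Groups did not overlap in any of these 8 genes, where 3797 of all 16146 tested genes were higher and 4092 lower without overlap. INSIG2, SREBF1 and SREBF2 were at 0.09, 0.08 and -0.01 (adjusted p = 0.407, 0.102 and 0.784), and SREBF1 passed with library totals (0.00773) and without replicate 3 of both drugs (0.0324). The 4 lower fatty acid enzymes were ACLY, SCD, FASN and FADS1, and none held in every alternative. ACLY was lost without replicate 1 of both drugs (0.0661), FASN without MCL replicate 3 (0.0736), and SCD and FASN with library totals (0.0792 and 0.0832). FADS1 was lost in all 12 alternatives: without any 1 library (0.0592 to 0.15), and with DESeq2 (0.0687), DESeq2 size factors (0.0922), library totals (0.381), no filter (0.135), only the groups compared (0.0744) and the replicate block (0.0543). LSS was lost with library totals (0.0568) and without MCL replicates 1 or 3 (0.0558 and 0.107), MVK without MCL replicate 2 (0.135) or replicate 3 of both drugs (0.132), and 5 members were lower with library totals.

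Whether the drugs acted additively on the log2 scale was tested by subtracting the 2 single-drug changes from the change with both drugs. For 8 of 31 tested members this differed from 0: 5 lay above the sum and 3 below, and 23 did not pass, against 12.2% above and 12.8% below of all tested genes, 25% in all. MSMO1 was at 0.23 with MCL and -0.10 with ruxolitinib, and at 0.52 with both, a difference of 0.40 ± 0.07 (adjusted p = 3.22e-06). SC5D was at 0.25, 0.00 and 0.67, a difference of 0.41 ± 0.10 (0.000715). SQLE was at -0.10 and -0.12 with single drugs and at -0.55 with both, a difference of -0.33 ± 0.05 (5.21e-08). STARD4 was at -0.08 and -0.07 with single drugs, neither of which passed, and at 0.21 with both (difference 0.36 ± 0.07, 0.00013).

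IDI1 and ACACA also lay above the sum, by 0.25 ± 0.07 (0.00346) and 0.20 ± 0.06 (0.00416), and EBP and DHCR7 below it, at -0.21 ± 0.06 (0.0107) and -0.17 ± 0.05 (0.0113). The call of DHCR7 was lost without MCL replicate 3 (0.0523), and the other 7 held in every alternative. For HSD17B7, whose change with both drugs was the largest, the difference from the sum did not pass, at 0.22 ± 0.19 (0.441). The pseudogene HSD17B7P2 did pass, at 0.83 ± 0.23 (0.00525), and the division of reads between the copies is uncertain. INSIG1 and INSIG2 had differences of 0.10 ± 0.06 and 0.15 ± 0.11 (0.226 and 0.355), and SREBF1 and SREBF2 of -0.05 ± 0.05 and -0.03 ± 0.04 (0.565 and 0.658). The 8 members that passed comprised 6 of 17 tested sterol enzymes, 1 of 8 fatty acid enzymes and 1 of 6 control and transport genes. Their share of the tested members was near the share of all tested genes. Outside the members NPC1 had a difference of 0.61 ± 0.09 (2.48e-07).

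**Figure D4:**
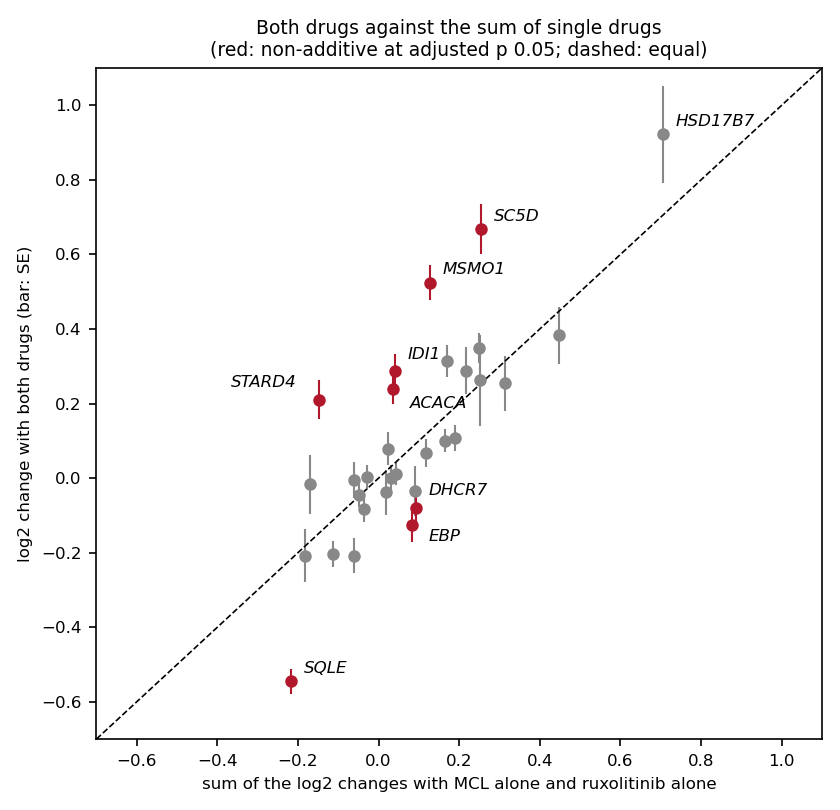
Each point is a tested member: the x axis gives the sum of its log2 changes with MCL alone and with ruxolitinib alone, the y axis its log2 change with both drugs, all against TNF-α (bars, SE; dashed line, equality). Red members passed the non-additive test: SC5D, MSMO1, STARD4, IDI1 and ACACA lie above the line, and SQLE, EBP and DHCR7 below it.

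Sterol and fatty acid enzymes were compared library by library through the median, over the genes of each class, of log2 CPM relative to the untreated mean. For the 17 sterol enzymes this median was -0.02 to 0.01 in untreated libraries, 0.06 to 0.07 with TNF-α, 0.13 to 0.18 after MCL, 0.08 to 0.16 after ruxolitinib and 0.13 to 0.16 after both. The median can fall on a different gene in each library, so gaps between groups need not equal the median change of the genes. For ruxolitinib against TNF-α that median change was 0.0023 in the sterol enzymes. For the 8 fatty acid enzymes it was near 0 in untreated libraries, -0.13 to -0.10 with TNF-α, -0.05 to 0.01 after MCL, -0.22 to -0.19 after ruxolitinib and -0.13 to -0.07 after both. In all 12 libraries with TNF-α the sterol median was above that of the fatty acid enzymes. The summed level of sterol enzymes went from 2074 ± 17.4 CPM untreated to 2287 ± 13.7 with TNF-α, 2330 ± 20.0 after MCL, 2281 ± 64.8 after ruxolitinib and 2220 ± 14.3 after both. That of the fatty acid enzymes went from 3240 ± 34.7 to 3028 ± 42.3, 3246 ± 69.3, 2863 ± 34.7 and 3063 ± 70.9 CPM in the same order. The ruxolitinib libraries had the lowest fatty acid sums. Sums weigh the abundant genes most, and the single genes within a class went different ways, as SQLE and MSMO1 did with both drugs.

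**Figure D5:**
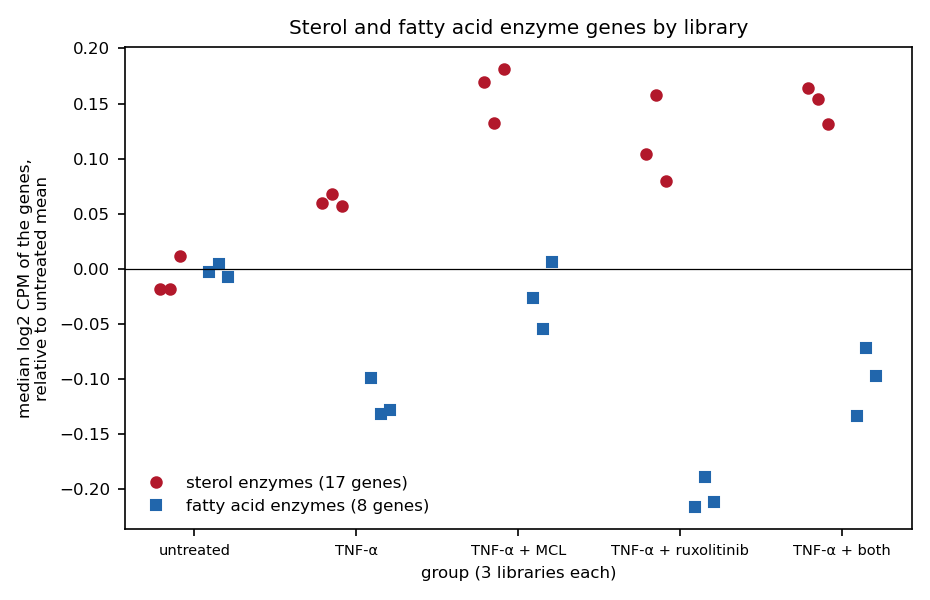
Each point is a library: the y axis gives the median, over 17 sterol enzymes (red circles) or 8 fatty acid enzymes (blue squares), of log2 CPM relative to the untreated mean, and the x axis the 5 groups. Sterol points lie above 0 and above the fatty acid points in every library with TNF-α, and the fatty acid points are lowest with ruxolitinib.

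Some member values cannot be assigned with certainty to 1 gene. Of the 32 members 12 overlap another tested gene on the opposite strand and 2 on the same strand, and reads of such pairs may not have been told apart. Overlaps with genes that the filter removed, such as those of CYP51A1, were not counted. RAI1, which overlaps SREBF1, was at -0.97 ± 0.06 with both drugs against TNF-α (adjusted p = 5.23e-13), and TCP1, which overlaps ACAT2, at 0.31 ± 0.03 (1.70e-12). TM7SF2 overlaps VPS51 on the same strand, and VPS51 was at -0.07 ± 0.07 (0.432). SQLE, MSMO1, SC5D, INSIG1, IDI1, MVD, NSDHL, ACACA, FASN and SCD overlap no tested gene.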

How the data were processed

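Total RNA-seq of 15 UKE1 libraries (5 groups of 3, RNA 3 h after treatment) was analysed from the deposited count table, which holds the authors' whole-number read counts per gene. The submitters' processing notes name featureCounts 1.5.0-p3, HISAT2 2.0.5, DESeq2 and the builds hg38 and mm10, with no role given for any of them. No source used here gives the settings for strand, multimapping or overlapping genes. All 58735 gene entries matched GENCODE 29, and columns were assigned to groups by their names, with the columns named as control taken as the untreated libraries. The members, gene lists and tests were chosen with earlier results of these data known.

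Genes with low counts were removed (filterByExpr, minimum count 10), which left 16146. One model over all 15 libraries was fitted with edgeR 4.0.16 in R 4.3.3 (TMM scaling, robust quasi-likelihood test, 10 residual degrees of freedom). Values of p were adjusted by Benjamini-Hochberg over all tested genes, and a call is an adjusted p under 0.05. All adjusted p values given are from this test unless another tool is named. Each SE of a log2 change is the size of that change divided by the square root of the test's F statistic. Groups without overlap are described mostly for genes picked by small p, and are not support apart from the test. CPM used TMM-scaled library sizes, and RPKM the gene length in the table. Library totals of 15476399 to 18035604 counts and a biological coefficient of variation of 0.0404 set the precision. No pair of libraries agreed within counting noise. Alternatives were DESeq2 size factors, unscaled library totals, no filter, the replicate number as a block, DESeq2 1.42.0, only the groups compared, and each library left out. The code was tested on simulated counts. Values in every library are given for up to 8 passing members a comparison with the smallest p and for INSIG1, INSIG2, SREBF1 and SREBF2; the other gene lists are named by at most 3 passing genes each. Some genes of the surrounding lists are not reported here and are left out of their counts.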

Additional observations from a re-analysis of the deposited data

Results flagged for a closer look

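For 8 members the log2 effect of MCL differed by whether ruxolitinib was present, by the edgeR interaction test. Each value is the effect with ruxolitinib minus the effect without it. Among sterol enzymes the difference was 0.41 for SC5D (adjusted p = 0.000715), 0.40 for MSMO1 (3.22e-06), 0.25 for IDI1 (0.00346), -0.17 for DHCR7 (0.0113), -0.21 for EBP (0.0107) and -0.33 for SQLE (5.21e-08). It was 0.36 for the cholesterol carrier STARD4 (0.00013) and 0.20 for ACACA (0.00416). Of all tested genes 25% passed this test. In the surrounding lists 1 of 15 side-branch genes passed below 0 and 2 of 10 genes of sterol handling above 0. Of 27 lipid genes 5 passed above 0 and 6 below. At most 3 a list, those with the smallest p, are named here. The difference was 0.61 for NPC1 (2.48e-07), 0.36 for ACSL3 (6.65e-05), 0.30 for PAQR3 (0.000585) and 0.27 for ACSL4 (8.23e-05). It was -0.32 for AGPAT2 (6.72e-05) and -0.26 for COQ2 (0.0327). The call of COQ2 was lost with library totals and without several single libraries. Without ruxolitinib replicate 3 or replicate 2 of both drugs, 2 side-branch genes lay below 0. Leaving out either of these, MCL replicate 1 or ruxolitinib replicate 1 put 1 gene of sterol handling below 0.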

How the results depend on the processing

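Of 109 member calls over the 8 comparisons, 71 kept their sign and threshold in every alternative, 38 were lost in at least 1 and 0 were reversed. Calls lost numbered 7 with DESeq2 size factors, 12 with library totals, 10 without a filter, 8 with DESeq2, 5 with only the groups compared and 36 over the fits that left out a library. The replicate block lost 3 (ELOVL6 for TNF-α against untreated, FADS1 for both drugs against MCL, HSD17B7 for MCL against ruxolitinib). Same-numbered libraries had deviations correlated from -0.097 to 0.13 over 30 pairs (median 0.018, 4 over 0.1). For the 60 pairs with different numbers they ran from -0.228 to 0.122 (median -0.013, 3 over 0.1). Correlations this weak do not settle whether the numbers pair the samples. No scaling moved the median of all tested genes by over 0.1. For both drugs against TNF-α it was -0.025 with TMM and 0.049 with library totals. Some called changes are also below 0.1 in size, such as that of ACLY (-0.08). Library totals gave class medians (sterol, then fatty acid, log2) of 0.045 and -0.145 for TNF-α, 0.112 and 0.133 for MCL, 0.184 and 0.077 for both drugs against TNF-α, 0.095 and -0.051 against MCL, and 0.049 (against -0.0043 with TMM, a change of sign) and 0.123 against ruxolitinib. For ruxolitinib the fatty acid median was -0.071. Lower members then numbered 0 with MCL, 3 with ruxolitinib, 3 with both drugs and 5 against MCL. Without a filter the medians were 0.053 and -0.137 for TNF-α and 0.123 for fatty acid enzymes with MCL, and lower members numbered 0 with MCL, 2 with ruxolitinib and 1 for MCL against ruxolitinib. Lower members with ruxolitinib were 3 with DESeq2, DESeq2 size factors or only the groups compared; DESeq2 gave 1 for MCL against ruxolitinib, and DESeq2 size factors a fatty acid median of 0.024 for both drugs. Leaving out libraries gave sterol medians of 0.0396 to 0.0902 for TNF-α, 0.0662 to 0.104 for MCL, -0.0102 to 0.0424 for ruxolitinib, 0.0895 to 0.132 for both drugs, -0.0608 to 0.039 against ruxolitinib, 0.023 to 0.0736 for MCL against ruxolitinib and -0.0863 to -0.0157 for the non-additive effect. Fatty acid medians were -0.0926 to -0.0658 for ruxolitinib, -0.0129 to 0.0186 for both drugs and -0.0483 to -0.00076 for the non-additive effect. Lower members numbered 0 to 1 with MCL, 1 to 3 with ruxolitinib (higher 2 to 4), 3 to 6 with both drugs and 1 to 3 for MCL against ruxolitinib. The cause of these shifts was not tested.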
